A study of Mus musculus with 20 samples.

Results

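Gene expression in the amygdala was compared between the F2 and the F1 generation of mice descended from stressed animals, across all genes of the count table. The comparison used 10 of the 20 libraries of the series. The stress F2 group held 5 mice (replicates 11 to 15) and the stress F1 group 5 mice (replicates 1 to 5). Both were behaviourally naive males of the C57B6 strain, bred in house from Taconic stock and sampled at postnatal day 84. They were the first or the second generation after the chronic unpredictable stress procedure, which the series title places in adolescence. The labels describe no stress of the sampled mice themselves. The no-stress F2 and no-stress F1 groups, 5 mice each of the same strain, sex and age from an unstressed lineage, gave the same change of generation for comparison. No batch, breeding date or litter is given in the labels, so the generation and the time at which it was bred and processed cannot be told apart.

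The amygdala assigns emotional value to stimuli and drives fear and stress responses, in part through neurons that release corticotropin-releasing hormone. Glucocorticoids act on its neurons and glia through the receptors encoded by Nr3c1 and Nr3c2. Its white and grey matter also hold oligodendrocyte precursors, which divide in the adult brain and pass through a committed, premyelinating stage before they make myelin.

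The column totals lay between 13654890 and 13696773 counts in the 10 libraries, so the values had been brought to nearly one total before deposit and the original depth is unknown. Of 29671 genes, 16727 were tested, with a biological coefficient of variation of 18.1%. Markers of the basolateral amygdala summed to 1315 to 2031 CPM (counts scaled to library size) in stress F2 and to 1243 to 1781 CPM in stress F1. Markers of the central amygdala summed to 681 to 926 CPM in stress F2 and to 793 to 933 CPM in stress F1. Markers of striatal medium spiny neurons, which lie next to the amygdala, varied more widely, from 1668 to 14140 CPM in stress F2 and from 3076 to 7590 CPM in stress F1. Replicates 14 and 15 of stress F2 were the lowest and the highest of these 10 libraries, and they also had the highest and the lowest score on the first principal component of all 20 libraries (52.94 and -36.14). The results below are therefore also given without these libraries where that changes a call.

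Few genes differed between stress F2 and stress F1. In edgeR's quasi-likelihood test, 2 genes rose in stress F2 at a Benjamini-Hochberg adjusted p below 0.05, or 0.012% of the genes tested, and 0 fell. Gpr17 had the smallest p of all genes tested. At an unadjusted p below 0.05 there were 1169 genes (6.99%), of which 716 were higher (4.28%) and 453 lower (2.71%) in stress F2. DESeq2 called 6 genes higher and 0 lower, limma-voom called 1 higher and 0 lower, and limma-voom with library weights called 6 higher and 1 lower. The median log2 fold change over all genes was 0.009, and 52.1% of genes lay above 0. The 95% interval of the log2 fold change stayed within a 2-fold change in either direction for 89.3% of genes and within a 1.5-fold change for 66.8%. The median standard error was 0.146 on the log2 scale.

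**Figure D1:**
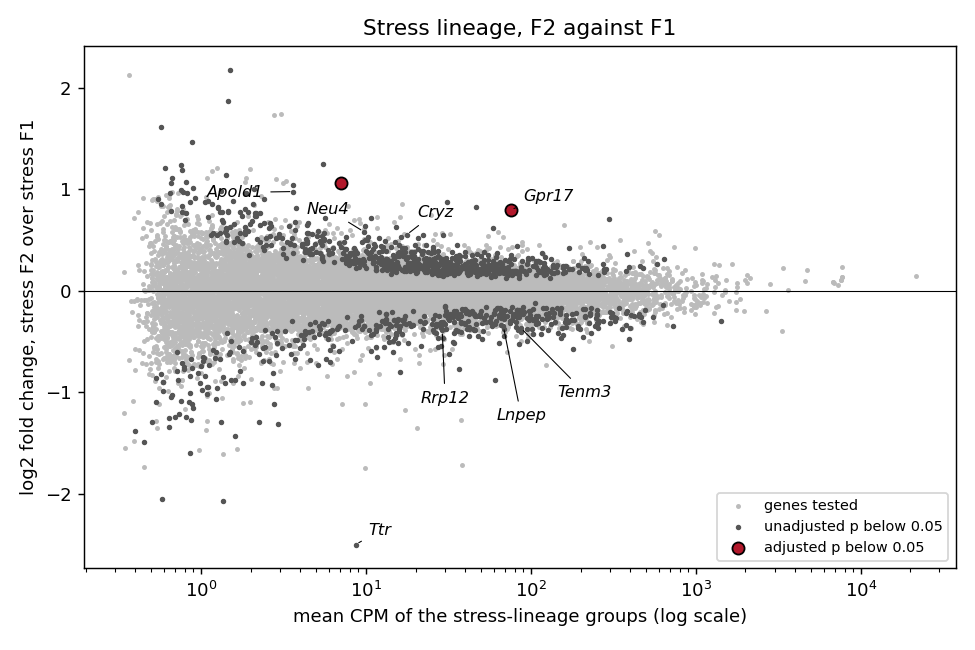
Log2 fold change of stress F2 over stress F1 (vertical axis) against the mean CPM of these groups (horizontal, log scale) for the 16727 genes tested. The 2 red points are the genes with an adjusted p below 0.05, dark points have an unadjusted p below 0.05, and Ttr is the named gene furthest below 0.

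Gpr17 encodes an orphan G protein-coupled receptor that marks committed oligodendrocyte precursors and restrains their maturation. It is at chromosome 18:31942997-31949636 on the minus strand (GRCm38). It had 96.8, 92.2, 109, 79.9 and 101 CPM in stress F2 (replicates 11 to 15), against 46.5, 50.2, 62.3, 61.5 and 54.3 CPM in stress F1 (replicates 1 to 5). Every stress F2 library lay above every stress F1 library, which held for 0.436% of all genes (0.341% had stress F2 below stress F1, and 0.777% did not overlap in either direction). The means were 95.7 ± 10.7 CPM in stress F2 and 54.9 ± 6.92 CPM in stress F1 (SD, n = 5 each). The log2 fold change was 0.80 ± 0.12 (SE; edgeR adjusted p = 0.0225). The adjusted p passed 0.05 without replicate 11, 13 or 15 of stress F2 (0.0912, 0.126 and 0.0917) and without replicate 1, 2 or 5 of stress F1 (0.0689, 0.151 and 0.076), while the log2 fold change stayed between 0.75 and 0.86 whichever of the 10 libraries was left out. With library totals in place of TMM factors the adjusted p was 0.0579, and with only the 10 libraries of the stress lineage in the fit it was 0.0884.

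The same gene rose in the no-stress lineage. Gpr17 averaged 82.6 ± 6.86 CPM in no-stress F2 and 47.1 ± 9.54 CPM in no-stress F1, a log2 fold change of 0.81 ± 0.12 (edgeR adjusted p = 0.0101). The difference between the lineages in this log2 fold change was -0.01, with a 95% interval of -0.36 to 0.34 (edgeR adjusted p = 0.983). The lineages share no libraries.

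Neu4 encodes a sialidase that is abundant in the oligodendrocyte lineage. Its CPM were 12.7, 9.52, 14, 10.1 and 12.1 in stress F2, against 6.95, 6.96, 9.01, 8.15 and 7.87 in stress F1. The groups did not overlap, but the gene did not pass the test over all genes (log2 fold change 0.58 ± 0.11, edgeR adjusted p = 0.124). It passed without replicate 14 of stress F2 (0.63, edgeR adjusted p = 0.043) and in DESeq2 (adjusted p = 0.0147). In the no-stress lineage it averaged 10.7 CPM in no-stress F2 and 7.11 CPM in no-stress F1 and did pass (0.58 ± 0.11, edgeR adjusted p = 0.0233). A contrast of F2 against F1 averaged over both lineages was added after these values were seen. It called 4 genes (0.0239% of those tested), 3 higher (0.0179%) and 1 lower (0.00598%). Among them, Gpr17 (0.80 ± 0.08, edgeR adjusted p = 9.13e-05) and Neu4 (0.58 ± 0.08, edgeR adjusted p = 0.00295) were higher in F2, and Lnpep (-0.38 ± 0.06, edgeR adjusted p = 0.0289), which encodes a peptidase that cleaves oxytocin and vasopressin, was lower.

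**Figure D2:**
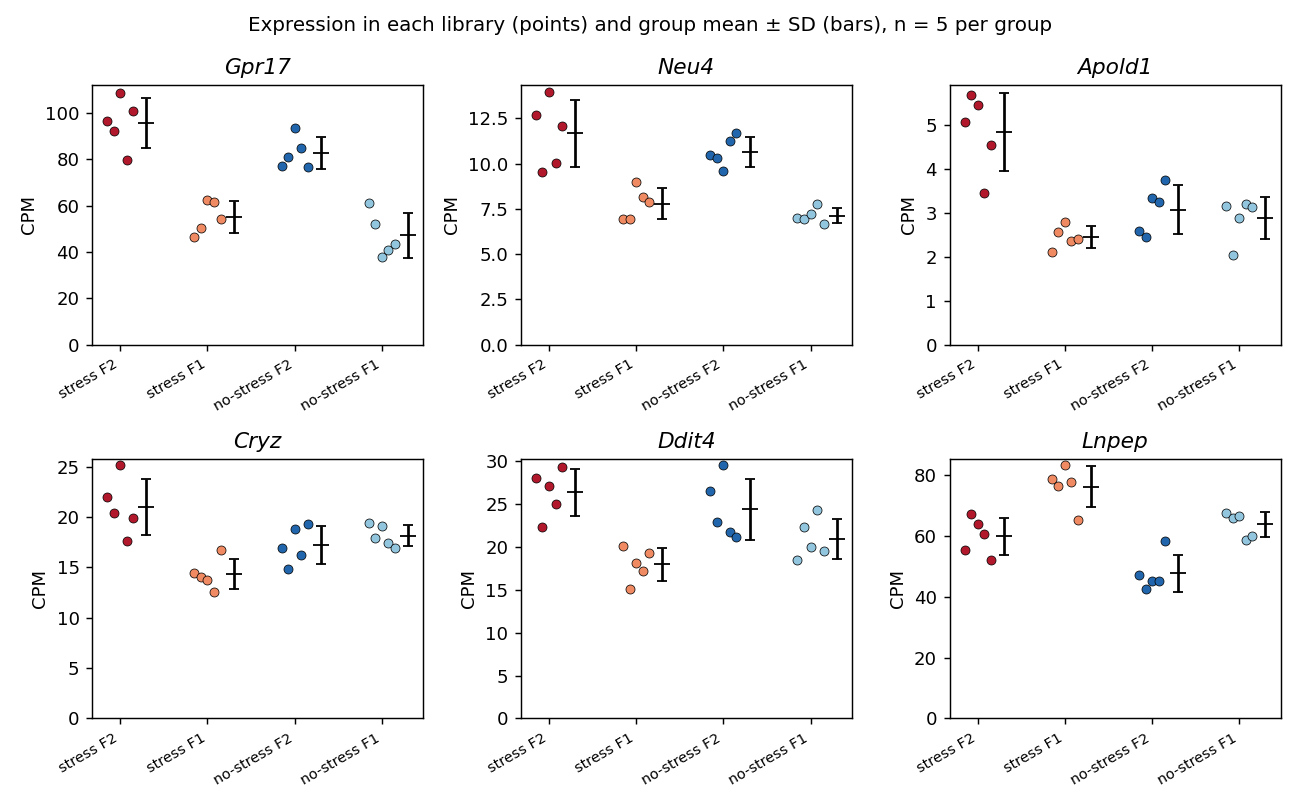
CPM of 6 genes in each library, with the mean ± SD of each group of 5 mice. Gpr17, Neu4, Apold1, Cryz and Ddit4 have every stress F2 library above every stress F1 library, as do 0.436% of all genes. Gpr17 and Neu4 show the same in the no-stress lineage, as do 2.53% of all genes there.

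Of the 14 listed genes of oligodendrocyte precursors, all were tested, 1 rose (Gpr17), 0 fell and 13 did not pass. The median log2 fold change was 0.194 with 12 of 14 above 0, beside 0.009 and 52.1% over all genes. In the no-stress lineage the median was 0.321 with 12 of 14 above 0, but the genes below 0 were different ones. They were Cspg4 and Vcan in the stress lineage, and Lhfpl3 and Pdgfra in the no-stress lineage. Of these, Vcan in the stress lineage (-0.01 ± 0.16) and Pdgfra in the no-stress lineage (-0.01 ± 0.11) lay near 0, so their signs carry little weight. The further members named here were picked after their values were seen. Bmp4, a growth factor made by committed precursors, averaged 1.97 CPM in stress F2 and 0.886 CPM in stress F1 (log2 fold change 1.15 ± 0.34, edgeR adjusted p = 0.643). Enpp6, an enzyme of newly forming oligodendrocytes, had 12.3, 13.1, 18.1, 2.96 and 9.59 CPM in stress F2, against 4.46, 5.26, 9.43, 9.01 and 6.04 CPM in stress F1, with replicate 14 of stress F2 below all the others. Fyn, a kinase that acts in myelination, had 108 to 121 CPM in stress F2 and 90.6 to 103 CPM in stress F1, with no overlap (0.25 ± 0.07, edgeR adjusted p = 0.643). Pdgfra, the growth factor receptor that marks dividing precursors, averaged 94.1 ± 16.2 CPM in stress F2 and 91.6 ± 5.63 CPM in stress F1, and the 95% interval of its log2 fold change ran from -0.19 to 0.27. Vcan, a matrix proteoglycan of these cells, had a log2 fold change of -0.01 ± 0.16, and Cspg4, the NG2 proteoglycan, one of -0.31 ± 0.19 in the stress lineage, beside 0.65 ± 0.19 in the no-stress lineage.

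The summed level of the precursor list ran from 572 to 779 CPM in stress F2 and from 453 to 627 CPM in stress F1. In bulk tissue, fewer cells of a type and less RNA per cell cannot be told apart. The list of mature oligodendrocyte genes summed to 2187 to 6635 CPM in stress F2 and to 3418 to 5800 CPM in stress F1. Of its members, 12 of 20 were above 0 with a median of 0.073, beside 17 of 20 and 0.208 in the no-stress lineage. The part of these lists in the Gpr17 result was not tested. Without replicates 14 and 15 of stress F2, left out for their striatal sums and component scores after the data were seen, Gpr17 had a log2 fold change of 0.85 (edgeR adjusted p = 0.0227).

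**Figure D3:**
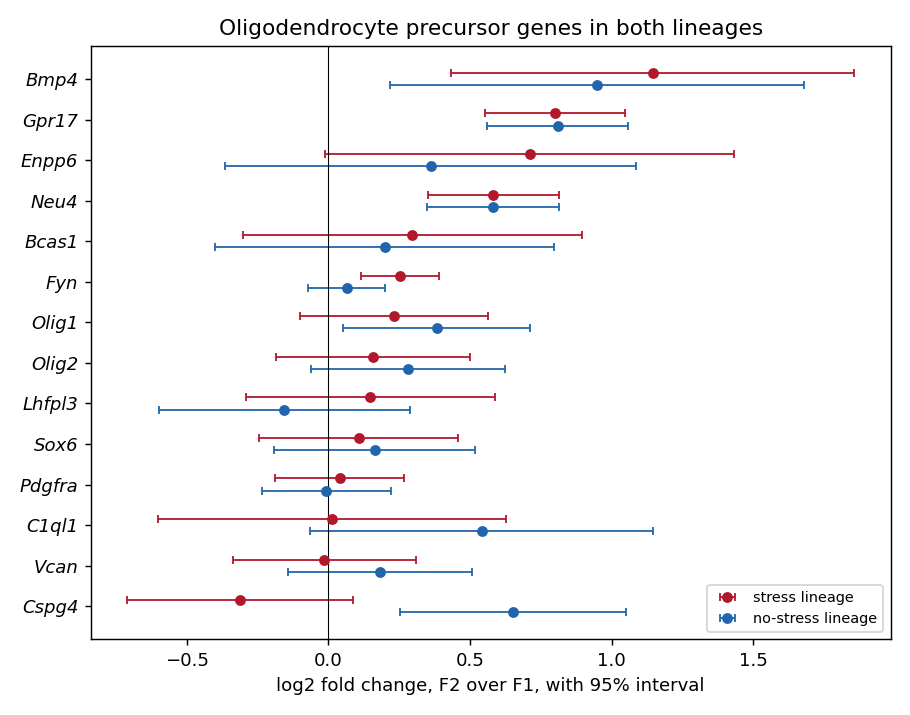
Log2 fold change of F2 over F1 with its 95% interval for the 14 precursor genes, in the stress lineage (red) and the no-stress lineage (blue). Gpr17 and Neu4 have nearly equal values in both lineages, while Cspg4 lies at -0.31 in the stress lineage and at 0.65 in the no-stress lineage.

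Among the genes that did not pass, Apold1 and Cryz had the smallest p. Apold1, an early response gene of endothelial cells, had 5.06, 5.67, 5.45, 3.45 and 4.53 CPM in stress F2, against 2.12, 2.56, 2.79, 2.36 and 2.40 CPM in stress F1 (log2 fold change 0.98 ± 0.17, edgeR adjusted p = 0.0524). In the no-stress lineage its log2 fold change was 0.09 ± 0.17, and the difference between the lineages was 0.88 (edgeR adjusted p = 0.0519). Cryz, a quinone oxidoreductase also known as zeta-crystallin, had 22.0, 20.4, 25.2, 17.7 and 19.9 CPM in stress F2, against 14.4, 14.1, 13.8, 12.6 and 16.8 CPM in stress F1 (0.55 ± 0.10, edgeR adjusted p = 0.0888). Its no-stress value was -0.08 ± 0.10, and here the difference between the lineages did pass (0.63, edgeR adjusted p = 0.0314). That difference was called for no gene with an offset per library for GC content and transcript length, or with a 1.2-fold minimum. Both genes have no overlap between stress F2 and stress F1. Both were called higher by DESeq2, by the weighted limma-voom fit and in edgeR without replicate 14 of stress F2 (adjusted p = 0.0133 for Apold1 and 0.0353 for Cryz) or without replicates 14 and 15 (0.0227 and 0.0305). Apold1 was also called without replicate 20 of no-stress F2 or replicate 7 of no-stress F1.

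The promoter windows of Apold1, which lies nearest to the threshold, and of Neu4, which moved alike in both lineages, are shown as examples (RefSeq, GRCm38.p6, from 250 bases before to 50 after the gene start). Apold1 is at chr6:134981751-134982050 and Neu4 at chr1:94020243-94020542, both on the plus strand. Capitals mark matches to the motifs searched.
Apold1: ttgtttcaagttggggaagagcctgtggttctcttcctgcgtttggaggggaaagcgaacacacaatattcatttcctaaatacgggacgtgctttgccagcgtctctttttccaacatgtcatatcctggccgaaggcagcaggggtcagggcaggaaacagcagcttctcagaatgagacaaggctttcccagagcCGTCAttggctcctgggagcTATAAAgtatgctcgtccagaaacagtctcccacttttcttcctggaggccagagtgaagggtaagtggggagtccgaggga
Neu4: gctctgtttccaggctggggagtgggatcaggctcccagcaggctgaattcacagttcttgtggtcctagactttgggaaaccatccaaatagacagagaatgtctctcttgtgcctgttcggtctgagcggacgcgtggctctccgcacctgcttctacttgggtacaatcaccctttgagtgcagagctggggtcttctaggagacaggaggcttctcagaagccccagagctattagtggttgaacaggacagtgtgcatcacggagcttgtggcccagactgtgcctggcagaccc
The windows of Apold1, Neu4 and Cryz were searched on both strands for 7 motifs, the TATA box TATAAA, the GC box GGGCGG, the E-box CACGTG, the cyclic AMP response element TGACGTCA, its core TGACG (which overlaps it), the glucocorticoid response element (full palindrome) and the NF1 core TTGGCA. The Apold1 window holds TATAAA, present in 13.6% of 32851 promoter windows, and TGACG on the minus strand (20.8%). The Neu4 window holds none of the 7. Of the 2 Cryz windows, 1 holds CACGTG, present in 7.15% of windows. The other motifs were found in 35.7% (GGGCGG), 1.79% (TGACGTCA), 0.00913% (the glucocorticoid element) and 14.1% (TTGGCA) of windows. A match describes the letters of the window and does not show that a factor binds there.

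No gene passed the test for a lower level in stress F2 (0 of 16727 in edgeR, 453 at an unadjusted p below 0.05), and the 5 with the smallest p (Ttr, Rrp12, Lnpep, Tenm3 and AC127224.2) are given as values, each with an edgeR adjusted p of 0.643. Ttr, the thyroxine carrier made by the choroid plexus, had 1.28, 0.907, 5.59, 1.06 and 4.15 CPM in stress F2, against 6.42, 12.5, 4, 4.58 and 46 CPM in stress F1. The groups overlapped, and replicate 5 of stress F1 was far above the rest. The choroid plexus and ependyma list, of which 7 of 16 genes were tested, had a median log2 fold change of -0.275. It summed to 147 to 248 CPM in stress F2 and to 191 to 260 CPM in stress F1. Most of this sum was Enpp2 (means of 173.2 CPM in stress F2 and 172.5 CPM in stress F1). Enpp2 is also in the list of mature oligodendrocyte genes, so the sum does not measure choroid plexus alone. The part of this list in the Ttr value was not tested. Rrp12, a factor of ribosome assembly, had 21.0 to 27.4 CPM in stress F2 and 30.8 to 34.6 CPM in stress F1, with no overlap (-0.39 ± 0.09). Lnpep had a log2 fold change of -0.35 ± 0.09 in the stress lineage, and it fell in the no-stress lineage (-0.42 ± 0.09, edgeR adjusted p = 0.0306). Arhgap39, named after its values were seen, had a log2 fold change of -0.41 ± 0.12 with all libraries (edgeR adjusted p = 0.643). It was called lower in stress F2 without replicate 14 of that group (-0.57, edgeR adjusted p = 0.042), without replicates 14 and 15 (-0.64, edgeR adjusted p = 0.0227) and in limma-voom with library weights (-0.57, adjusted p = 0.0225). Tenm3, a synaptic adhesion protein, had a log2 fold change of -0.36 ± 0.10, and AC127224.2 one of -0.55 ± 0.14.

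Genes of the stress hormone axis did not pass the test. Of 14 tested members of the hypothalamic-pituitary-adrenal list, 8 were above 0, with a median of 0.047. Crh, the releasing hormone, had 7.70, 5.82, 6.45, 2.67 and 6.04 CPM in stress F2, against 3.85, 5.47, 7, 5.01 and 3.93 CPM in stress F1, and the groups overlapped. Its receptor Crhr1 averaged 11.5 ± 2.53 CPM in stress F2 and 12.1 ± 2.78 CPM in stress F1. Nr3c1, the glucocorticoid receptor, averaged 107 ± 12.3 CPM in stress F2 and 106 ± 10.5 CPM in stress F1, and the 95% interval of its log2 fold change ran from -0.18 to 0.21. Fkbp5, a chaperone that dampens that receptor, averaged 42.8 ± 6.28 CPM in stress F2 and 43.7 ± 5.31 CPM in stress F1 (95% interval -0.28 to 0.21). Bdnf, a neurotrophin, varied so much between mice (4.30 to 22.7 CPM in stress F2, 3.57 to 20.9 CPM in stress F1) that its interval ran from -1.06 to 1.08. Oxtr, the oxytocin receptor, averaged 18.8 ± 8.91 CPM in stress F2 and 17.8 ± 1.13 CPM in stress F1, with replicate 14 of stress F2 at 34.1 CPM.

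Of 20 genes that glucocorticoids are known to induce, 15 were above 0 (median 0.149) and 0 passed. In the no-stress lineage 15 of 20 were also above 0, with a median of 0.211, but the genes below 0 were different ones. They were Per1, Zbtb16, Plin4, Klf15 and Fkbp5 in the stress lineage. In the no-stress lineage they were Nfkbia, Errfi1, Sgk1, Pdk4 and Klf9. Of these, Fkbp5 in the stress lineage (-0.03 ± 0.12) and Nfkbia in the no-stress lineage (-0.02 ± 0.14) lay near 0. Ddit4, an inhibitor of the mTOR pathway and picked here after its values were seen, had 28.1, 22.4, 27.1, 25.1 and 29.4 CPM in stress F2, against 20.1, 15.1, 18.1, 17.2 and 19.3 CPM in stress F1. The groups did not overlap (0.55 ± 0.11, edgeR adjusted p = 0.155), and the gene was called higher by DESeq2. Of 22 immediate early genes, which neuronal activity induces, 18 were above 0 with a median of 0.156, and 0 passed. In the no-stress lineage 18 were above 0 with a median of 0.406, and 3 of 22 were called higher there, beside 1.47% of all genes. These were Npas4, Ier2 and Junb, all transcription regulators induced by activity. Their log2 fold changes were 1.59, 1.42 and 1.13 in the no-stress lineage (edgeR adjusted p = 0.0212, 0.0212 and 0.0235). In the stress lineage they were 0.31, 0.12 and -0.20. Ier2 was at a low level, with means of 2.3 CPM in no-stress F2 and 0.84 CPM in no-stress F1. The difference between the lineages passed for Junb (-1.34, edgeR adjusted p = 0.0379) and did not for Npas4 (-1.28, adjusted p = 0.0638) or Ier2 (-1.30, adjusted p = 0.0596). With an offset per library for GC content and transcript length, no gene was called for that difference. Most of these 3 no-stress calls were then lost as well. With only the libraries of the no-stress lineage in the fit, none of them was called. Egr1 had 83.5 to 254 CPM in stress F2 and 109 to 149 CPM in stress F1. The wider range in stress F2 holds the whole range of stress F1.

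Genes of energy metabolism and translation had small log2 fold changes of mostly one sign in the stress lineage. Of 76 nuclear-encoded genes of oxidative phosphorylation, 66 were above 0 with a median of 0.147, and 0 passed the adjusted test with all libraries. Without replicate 14 of stress F2, Cox5a, an oxidative phosphorylation gene, was called higher. At an unadjusted p below 0.05 (edgeR) there were 23 of 76, all higher in stress F2. Over all genes tested 4.28% were higher and 2.71% lower at that threshold. In the no-stress lineage 24 of 76 were above 0, with a median of -0.11. The difference between the lineages was called higher in the stress lineage for 6 of 76, beside 0.837% of all genes. It was called for none with the GC and length offset. For mitochondrial ribosomal proteins 65 of 75 were above 0 (median 0.135), for cytosolic ribosomal proteins 60 of 79 (median 0.075) and for the proteasome 27 of 32 (median 0.107). With an offset per library for GC content and transcript length these medians were 0.085, 0.047 and 0.038, and that of oxidative phosphorylation was 0.105. Atp5b, a subunit of ATP synthase, averaged 985 ± 127 CPM in stress F2 and 901 ± 53.1 CPM in stress F1 (0.13 ± 0.08, edgeR adjusted p = 0.761). The share of counts from mitochondrially encoded genes was 7.86 ± 1.08% in stress F2 and 7.16 ± 0.736% in stress F1 (SD, n = 5 each). The difference of 0.694 percentage points had p = 0.286 in an exact two-sided permutation test, whose smallest possible p is 0.00794. It was 0.292 without replicate 15 of stress F2, and 1.03 without replicate 14, the lowest and the highest value with 1 of the 10 libraries left out.

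Nuclear retained RNAs had the opposite sign. Of 9 tested, 0 were above 0 in the stress lineage (median -0.32), while 8 of 9 were above 0 in the no-stress lineage (median 0.585), and none passed in either (adjusted p at least 0.643 in the stress lineage by edgeR). The stress-lineage median was -0.182 with the GC and length offset. Meg3, an imprinted long noncoding RNA, had 1655, 1974, 3430, 5794 and 1488 CPM in stress F2, against 2950, 4234, 5595, 4085 and 1925 CPM in stress F1, so the groups overlapped widely. Of 55 genes of DNA methylation and histone modification, 14 were above 0 (median -0.073, or -0.036 with that offset) and 0 passed. The difference between the lineages was called lower in the stress lineage for 6 of these 55, beside 1.68% of all genes, and for none with that offset. Kmt2a, a histone methyltransferase, averaged 224 ± 47.0 CPM in stress F2 and 273 ± 39.7 CPM in stress F1. Sterol and fatty acid synthesis had 6 of 29 genes above 0 (median -0.074) and 0 passed; Fasn, the fatty acid synthase, averaged 215 ± 52.4 CPM in stress F2 and 273 ± 26.7 CPM in stress F1 (-0.35 ± 0.14, edgeR adjusted p = 0.668).

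Among the cell type and region lists other than precursors, 0 members passed. Striatal medium spiny neuron genes had 20 of 21 above 0 in the stress lineage (median 0.364) and 2 of 21 in the no-stress lineage (median -0.288), with the wide sums given above. Penk, the enkephalin precursor, had 869, 844, 729, 295 and 1617 CPM in stress F2, against 859, 484, 840, 923 and 755 CPM in stress F1. Both its lowest and its highest library were stress F2. Microglial genes had 19 of 20 above 0 (median 0.173) and summed to 497 to 1019 CPM in stress F2 and to 564 to 742 CPM in stress F1. Endothelial genes had 17 of 20 above 0 (median 0.203) and summed to 596 to 944 CPM in stress F2 and to 649 to 732 CPM in stress F1; the part of this list in the Apold1 value was not tested. Astrocyte genes had 15 of 20 above 0 (median 0.111), and Slc1a3, a glutamate transporter, averaged 715 ± 129 CPM in stress F2 and 576 ± 65.1 CPM in stress F1 (0.31 ± 0.11, edgeR adjusted p = 0.643).

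**Figure D4:**
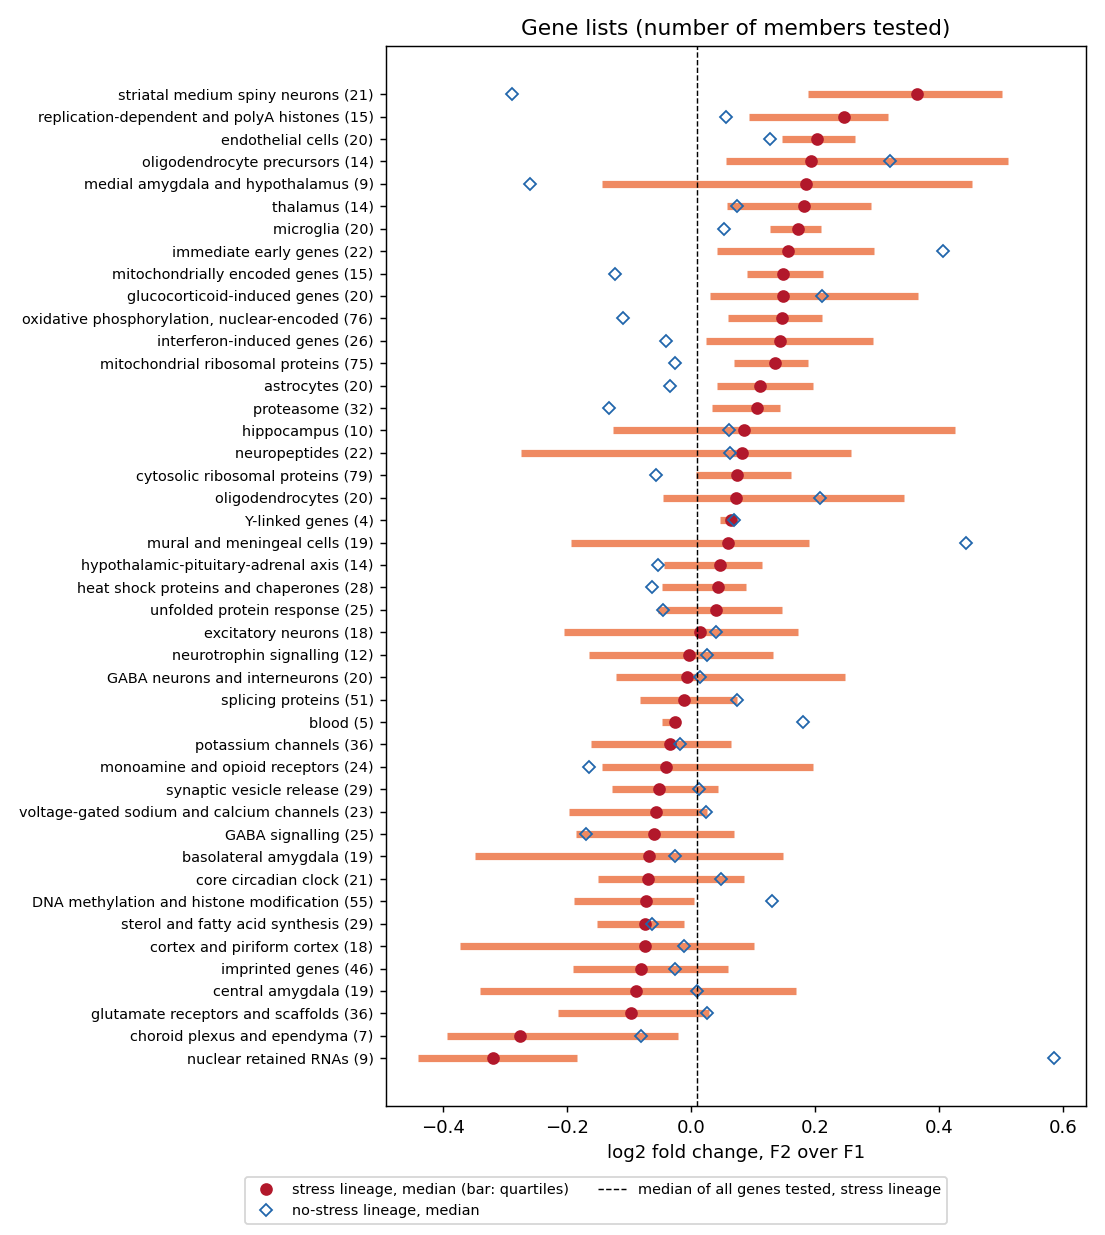
Median log2 fold change of F2 over F1 for the 44 gene lists, with quartiles, in the stress lineage (circles and bars) and medians in the no-stress lineage (diamonds). Nuclear retained RNAs and striatal genes have medians of opposite sign in the lineages, while precursor genes lie above 0 in both (0.194 and 0.321). Other lists also lie above 0 in both, among them mature oligodendrocyte genes (0.073 and 0.208) and endothelial genes (0.203 and 0.127).

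The change from F1 to F2 was also compared between the lineages. Over all genes tested, the log2 fold changes in the stress and the no-stress lineage had a Spearman correlation of -0.317. The no-stress lineage had 335 called genes (2% of those tested), 246 higher (1.47%) and 89 lower (0.532%) in no-stress F2. The difference between the lineages was called for 421 genes (2.52%), of which 140 were higher and 281 lower in the stress lineage. None of the 421 was called within the stress lineage, 219 were called within the no-stress lineage, and the stress-lineage value was the larger in size for 53. The 140 had a median log2 fold change of 0.199 in the stress lineage and -0.292 in the no-stress lineage. The 281 had medians of -0.264 in the stress lineage and 0.508 in the no-stress lineage. Both sets were chosen by this difference in the same data, so medians that lie apart follow from the choice. Nkain2, a protein that interacts with the sodium pump, had 96.8, 92.1, 80.4, 79.7 and 89.3 CPM in stress F2, against 76.5, 67.4, 65.0, 67.4 and 74.9 CPM in stress F1. Its log2 fold change was 0.32 ± 0.08 in the stress lineage and -0.33 ± 0.08 in the no-stress lineage (difference 0.65, edgeR adjusted p = 0.0309). Plec, the cytoskeletal linker plectin, averaged 78.6 ± 16.9 CPM in stress F2 and 111 ± 8.91 CPM in stress F1, with a log2 fold change of -0.49 ± 0.14 in the stress lineage and 0.68 ± 0.14 in the no-stress lineage (difference -1.17, edgeR adjusted p = 0.0309).

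The genes called for the difference were also described by the GC content of their transcripts. Median GC content was 58.3% for the 281 genes, 44.4% for the 140 genes and 49.8% for all genes tested. The trend was taken as a library's median log2 deviation from the gene means in the top GC bin, less the same value in the bottom bin, with 10 bins in all. It was -0.2 ± 0.26 in stress F2 and -0.0734 ± 0.143 in stress F1 (SD, n = 5 each; exact two-sided permutation p = 0.341). The difference of -0.127 became -0.076 without replicate 13, -0.077 without replicate 12 and -0.229 without replicate 15 of stress F2, and -0.079 without replicate 5 of stress F1. It was 0.35 ± 0.275 in no-stress F2 and -0.072 ± 0.232 in no-stress F1. With an offset per library for GC content and transcript length together, so that their parts cannot be told apart, the difference was called for 0 genes and the no-stress lineage for 1. The stress lineage then had 4 genes called higher and 0 lower, among them Gpr17 (0.85, edgeR adjusted p = 0.00435), Apold1 and Ddit4 (edgeR adjusted p = 0.0297 each).

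**Figure D5:**
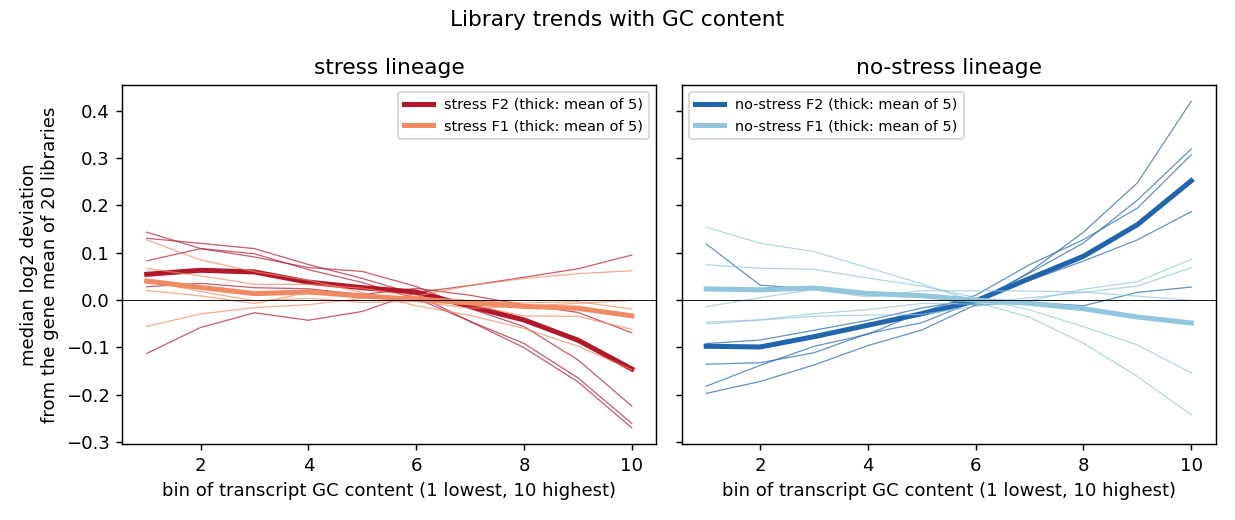
Median log2 deviation of each library from the gene mean of 20 libraries, in 10 bins of transcript GC content, with group means as thick lines. The mean trend from the lowest to the highest bin is -0.2 in stress F2 and -0.0734 in stress F1, against 0.35 in no-stress F2 and -0.072 in no-stress F1.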

How the data were processed

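Messenger RNA of bilateral 1.2 mm amygdala punches was sequenced with a stranded poly-A kit, per the labels' protocols. Per the submitters' processing notes, STAR 2.5.3a was used with GRCm38. Which counter, annotation and strand setting were used is not given in the sources used here. Counts were deposited by the authors as whole numbers for each gene in each mouse, with totals that had been made nearly equal. Genes were tested in edgeR 4.0.16 (R 4.3.3; quasi-likelihood, robust, TMM factors of 0.956 to 1.042, filterByExpr) with all 20 libraries in 1 fit and a mean per group. A gene was called at an adjusted p below 0.05. CPM are counts scaled by the effective library size and are compared within genes only. Alternatives used DESeq2 1.42.0, limma 3.58.1 and sva 3.50.0. GC content, known for 16692 genes, came from the GENCODE annotation of GRCm38. The GC and length offset was a spline with 5 degrees of freedom.

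Gene lists (44) and the genes named were chosen with earlier results of these data known, so lists are described by counts and medians without a test. Named genes were the 5 of smallest p in each direction (mean CPM at least 1), called or highest-expressed members of lists, 6 stress-related genes (Crh, Crhr1, Nr3c1, Fkbp5, Bdnf and Oxtr) and the strongest differences between lineages; other list members were picked after their values were seen. Some genes that this rule names, 1 of the 2 called genes among them, are not reported here. The table has 46 symbols in more than 1 row, each tested by its identifier, and 5 nuclear copies of mitochondrial genes. The labels call the mice biological replicates but name no litters, so p-values assume independent mice.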

Additional observations from a re-analysis of the deposited data

Results flagged for a closer look

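The highest or lowest library of a group stood apart from its other 4 in 6 of 144 groups examined (68 genes and the library measures), and chance alone gives about 1 in 20. In stress F2, replicate 14 had 34.1 CPM of Oxtr, against 11.6 to 17.6 in the others. Replicate 13 had 939 CPM of Slc1a3, against 621 to 697. In stress F1, replicate 5 had 46 CPM of Ttr, against 4 to 12.5, and 824 CPM of Atp5a1, against 724 to 750. Replicate 1 had 124 CPM of Tenm3, against 90 to 94.2, and 22.3 CPM of Gtf3c6, against 18.1 to 18.8.

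For 14 of the 68 named genes the change from F1 to F2 differed between the lineages (edgeR, adjusted p between 0.0309 and 0.0379). Over all genes tested, 2.52% were called for this difference. Most of the 14 were named because this same difference was called for them, so their count is not a result about the named genes. The difference in log2 fold change, stress minus no-stress lineage, was 1.18 for Tmem267, 0.65 for Gtf3c6, 0.65 for Nkain2, 0.63 for Cryz, 0.53 for Snrpd3 and 0.45 for Timm29. It was -1.34 for Junb, -1.23 for Wdr90, -1.22 for Inha, -1.17 for Plec, -0.88 for AC160637.1, -0.8 for Gtpbp2, -0.76 for Arhgap39 and -0.56 for Rrp12. With the GC and length offset the difference was called for 0 genes.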

How the results depend on the processing

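The count of 2 genes called between stress F2 and stress F1, both higher, became 6 (6 higher) with DESeq2, 1 (1 higher) with limma-voom, 7 (6 higher, 1 lower) with library weights, 4 (4 higher) with the GC and length offset or at an adjusted p below 0.1, and 0 (0 higher) with library totals, with a 1.2-fold minimum or with only the 10 libraries in the fit. Leaving out 1 library gave 0 to 10 genes, 0 to 9 higher and 0 to 1 lower; the 10 came without replicate 14 of stress F2. Without replicates 14 and 15 of stress F2 there were 4, of which 1 was lower. Across 36 settings Gpr17 was called in 27, which include the main fit and every fit without a no-stress library. With 1 compared library left out, it was called only without stress F2 replicate 12 or 14, or stress F1 replicate 3 or 4. List members called (1) became 3 with DESeq2 or library weights, 2 with the offset, and 0 with library totals, the 1.2-fold minimum or only 10 libraries, and 0 to 3 with 1 library left out. The cause of these shifts was not tested.

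The 335 calls of the no-stress lineage became 992 with DESeq2, 985 with library weights, 208 with library totals, 61 with no filter, 651 with 1 surrogate variable, 1 with the offset, 1057 at an adjusted p below 0.1, 0 with the 1.2-fold minimum or only its 10 libraries, and 0 to 725 with 1 library left out. The 421 differences became 1194 with DESeq2, 2421 with library weights, 100 with no filter, 0 with the offset, 1359 at an adjusted p below 0.1, 0 with the 1.2-fold minimum, 0 to 1501 with 1 library left out and 1774 without replicates 14 and 15. The 4 genes of the contrast averaged over lineages became 23 with DESeq2, 17 with library weights, 9 with 1 surrogate variable, 1 with the 1.2-fold minimum, 3 to 8 with 1 library left out and 2 without replicates 14 and 15.

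Some log2 fold changes near 0 changed sign. With limma-voom Oxtr was at -0.022, and with library weights Oxtr was at -0.121, Pdgfra at -0.02 and Vcan at 0.013. With library totals C1ql1 was at -0.002. With 1 surrogate variable Homer1 was at -0.032, Crhr1 at 0, Nr3c1 at -0.008, Klf9 at -0.122, Penk at -0.177 and Bdnf at -0.001. With the offset Crhr1 was at 0.002, Vcan at 0.091, Bdnf at -0.04 and Rpl3 at -0.011, and with mitochondrial genes removed Bdnf was at -0.004. Without replicates 14 and 15 Vcan was at 0.025, Pdgfra at -0.037, C1ql1 at -0.032, Oxtr at -0.147 and Rpl3 at -0.064. With 1 library left out the ranges were -0.333 to 0.291 for Bdnf, -0.133 to 0.149 for C1ql1, -0.193 to 0.061 for Crhr1, -0.071 to 0.343 for Egr1, -0.093 to 0.044 for Fkbp5, -0.1 to 0.176 for Klf9, -0.295 to 0.092 for Mbp, -0.047 to 0.075 for Nr3c1, -0.251 to 0.211 for Oxtr, -0.04 to 0.12 for Pdgfra, -0.175 to 0.394 for Penk, -0.02 to 0.116 for Rpl3 and -0.119 to 0.066 for Vcan. No paired analysis was possible because each mouse has a number of its own. The depth before the totals were made equal is unknown and limits what counts of low genes can show.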
